A study of Rattus norvegicus with 19 samples.

Results

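Axon guidance ligands and receptors were taken as every gene symbol of the deposited table that begins with Sema, Plxn, Efna, Efnb, Epha, Ephb, Ntng, Unc5 or Robo, or with Ntn or Slit followed by a digit. This rule found 68 of 17715 symbols. They were 20 semaphorins, 9 plexins, 8 ephrins, 13 Eph receptors, 6 netrins, 4 Unc5 receptors, 3 Slits, 3 Robo receptors and 2 genes that match by spelling alone, Unc50 and Unc5cl. Transcriptionally active putative enhancers (TAPEs) are open chromatin regions that lie outside genes and give RNA from both strands, and that RNA is enhancer RNA (eRNA). A TAPE whose centre lay under 100 kb from the start site of a member was found for 41 of these genes. Together this gave 109 of 27538 TAPEs and 112 of the 34704 TAPE-gene pairs under 100 kb, and 3 TAPEs lay near 2 member genes.

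The libraries came from neurons of Sprague-Dawley rat embryos (day 18) that were dissected from 1 of 3 brain regions, cortex, hippocampus and striatum, and kept for 11 days in vitro. Cultures then received neurobasal medium (vehicle) for 1 h, or KCl, a salt that raises extracellular potassium and so depolarizes the cells. Each of the 6 groups of region and treatment had 3 total RNA-seq libraries, except striatum vehicle with 4. By totals recovered from the deposited values, the 19 libraries held 46.4 to 72.5 M reads each, more than the study states per sample. Groups follow the sample labels. The study's methods for the RNA-seq put the extra striatum library under KCl instead, which bears on each striatum comparison of vehicle with KCl. For KCl the labels of the samples give 25 mM, whereas the text of the series gives 10 mM. The labels do not say whether replicates are separate cultures or animals, so p-values measure the spread between these libraries.

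Axon guidance genes steer growing nerve fibres. Semaphorins bind plexins, ephrins bind Eph receptors, secreted netrins bind Dcc and Unc5 receptors, and Slits bind Robo receptors, while the netrin-G proteins stay attached to the axon and bind partners on other neurons. Contact with these cues attracts or repels the growth cone, and in older neurons many of the same proteins sit at synapses.

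The region labels were checked against marker genes. All 6 listed cortical projection neuron genes were highest in cortex, all 5 measured hippocampal genes in hippocampus and all 8 measured striatal projection neuron genes in striatum. Of the hippocampal genes, Fibcd1 was too low to count, at a mean of 0.00287 CPM in hippocampus and 0 elsewhere. Cortex vehicle replicate 3 carries a striatal tissue label and a cortical title. Over the member genes it had an r of 0.999 with the remaining cortex group, of 0.910 with hippocampus libraries and of 0.892 with striatum libraries, and all 19 libraries were closest to the region of their title. The cultures also held other cells. The summed level of 3 astrocyte genes was 276 to 322 CPM (reads per M library reads) in cortex, 272 to 313 in hippocampus and 46.6 to 54.4 in striatum libraries. That of 6 oligodendrocyte lineage genes was 453 to 489, 345 to 414 and 166 to 203 CPM, that of 4 endothelial genes was 0.607 to 0.962, 6.40 to 8.35 and 0.277 to 0.845 CPM, and 4 microglial genes were near 0 (at most 0.123 CPM). These lists move with region, and their part in the region differences given next was not tested. In such bulk cultures fewer cells of a type and less RNA per cell cannot be told apart.

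Gene reads per library were recovered from the deposited correlations (described under the processing) for 64 of the 68 members. No value was recovered for Efnb1, Ntn5, Sema3e and Sema5b. Levels are given as CPM, which are not divided by gene length, so they compare regions and treatments of a gene and not one gene with another. Epha1, Robo3 and Unc5cl stayed at or under 0.431, 0.146 and 0.0646 CPM in each library. A library without a read allows up to 0.0646 CPM (3 reads). These 3 genes had a mean under 10 reads per library, which left 61 members for the tests on reads. Efna1 and Sema3g passed that filter while lying below it in their lowest region.

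Level by brain region was the main difference among these genes. With an exact permutation test of the region F statistic, 61 of 64 members depended on region (70.9% of all genes with a profile), and Ntn3, Robo3 and Unc5cl did not pass. With limma voom on the recovered reads, a test added after the data were examined, 61 of 61 members passed an adjusted p of 0.05, where 84.0% of 12861 tested genes did. Cortex had the highest mean for 24 members, hippocampus for 21 and striatum for 16. The shares of all tested genes highest in each region are not given. Such counts, here and by family or list below, thus describe the counted genes only. The median ratio of the highest to the lowest region was 2.10 over members and 1.41 over all tested genes, and 14 members exceeded 4-fold (10.2% of all tested genes). For 30 of 61 members no library of any region overlapped those of another region (16% of all tested genes). Members had more reads than most genes, with a median of 3010 per library against 1213, and depth moves with such counts.

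The 6 member genes whose upstream sequence is shown here lead the region differences, 2 for each region, by the rank of their region F statistic among members with a single RefSeq promoter entry. Sequences are the 250 bases before the start site in the RefSeq annotation of GRCr8, 5′ to 3′ on the strand of the gene. Capitals mark matches on either strand to any of 5 motifs searched. One was the TATA box, spelled TATAAA, and another the box named after its letters CCAAT. The GC box was spelled GGGCGG. The core of the cAMP response element (CRE) was spelled TGACG. The site of the AP-1 factors was spelled TGANTCA.
Ntng2, highest in cortex, chr3:32943822-32944071, minus strand: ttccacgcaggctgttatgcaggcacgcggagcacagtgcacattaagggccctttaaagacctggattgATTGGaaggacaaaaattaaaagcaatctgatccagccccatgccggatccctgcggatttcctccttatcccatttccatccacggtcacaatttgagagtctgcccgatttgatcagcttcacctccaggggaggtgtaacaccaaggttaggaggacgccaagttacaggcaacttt
Plxnd1, highest in cortex, chr4:150715188-150715437, minus strand: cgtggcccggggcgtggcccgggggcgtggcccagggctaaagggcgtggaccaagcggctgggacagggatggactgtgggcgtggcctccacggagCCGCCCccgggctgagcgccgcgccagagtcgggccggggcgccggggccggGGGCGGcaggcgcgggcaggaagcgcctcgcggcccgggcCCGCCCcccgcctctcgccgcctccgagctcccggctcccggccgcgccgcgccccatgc
Slit3, highest in hippocampus, chr10:20075679-20075928, plus strand: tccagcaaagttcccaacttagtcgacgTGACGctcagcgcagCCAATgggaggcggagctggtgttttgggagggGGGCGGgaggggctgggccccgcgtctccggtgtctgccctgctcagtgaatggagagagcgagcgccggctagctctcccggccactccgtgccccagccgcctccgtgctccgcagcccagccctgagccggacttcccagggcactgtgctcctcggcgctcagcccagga
Unc5b, highest in hippocampus, chr20:29307271-29307520, minus strand: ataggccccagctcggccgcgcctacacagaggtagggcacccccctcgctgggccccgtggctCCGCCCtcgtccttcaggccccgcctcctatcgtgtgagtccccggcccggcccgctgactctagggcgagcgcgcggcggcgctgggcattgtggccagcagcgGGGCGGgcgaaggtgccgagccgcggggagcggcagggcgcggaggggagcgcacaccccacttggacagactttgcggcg
Efnb2, highest in striatum, chr16:87484965-87485214, plus strand: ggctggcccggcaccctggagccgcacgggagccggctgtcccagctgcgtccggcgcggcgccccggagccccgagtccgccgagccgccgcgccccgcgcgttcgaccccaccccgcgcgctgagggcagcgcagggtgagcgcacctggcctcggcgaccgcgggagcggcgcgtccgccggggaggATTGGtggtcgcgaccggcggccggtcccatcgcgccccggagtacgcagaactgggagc
Robo2, highest in striatum, chr11:26526413-26526662, minus strand: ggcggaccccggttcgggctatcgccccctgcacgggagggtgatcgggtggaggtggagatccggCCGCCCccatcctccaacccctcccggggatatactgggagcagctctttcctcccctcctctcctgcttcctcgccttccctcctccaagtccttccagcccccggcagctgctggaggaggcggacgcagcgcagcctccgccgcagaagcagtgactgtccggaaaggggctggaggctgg
The Plxnd1 window held 3 GC boxes, the Unc5b window 2 and the Slit3 and Robo2 windows 1 each, while the Ntng2 and Efnb2 windows held 1 CCAAT box and no GC box. A promoter matched 52 of the 68 members. A GC box lay in 31 of these 52 (59.6%) and in 30.5% of 33469 promoters, a CCAAT box in 16 (30.8%) against 34.0%, and a CRE core in 8 (15.4%) against 18.2%. An AP-1 site lay in 1 member promoter (1.92%, against 6.34%) and a TATA box in 0 of 52 (12.9%). The median G+C content was 63.2% in member promoters and 51.2% in all, and motif matches move with it. A match describes letters only.

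Of the 5 measured netrins and netrin-G genes, 4 were higher in cortex than in hippocampus, as were 3673 of 12861 tested genes, and 3 were higher in striatum than in hippocampus, as were 4949. Ntng2, a netrin-G that is anchored to the axon surface (Rn6 chr3:7742531-7796385, minus strand), had the largest region F statistic of all members. Its lowest, median and highest libraries had 148, 157 and 160 CPM in cortex (n = 6), 75.8, 79.4 and 85.1 in hippocampus (n = 6) and 3.52, 4.0 and 4.75 in striatum (n = 7). The 3 regions did not overlap, and the cortex mean was 38.1 times the striatum mean (log2 difference 5.26 ± 0.07, SE). Its paralog Ntng1 had another order, with 16 to 18.1 CPM in cortex, 4.18 to 5.75 in hippocampus and 16.6 to 20.1 in striatum. Cortex and striatum overlapped for Ntng1 (log2 difference -0.08, adjusted p = 0.23). Ntn1, the secreted netrin that guides commissural axons, had a lowest, median and highest level of 62.1, 67.2 and 73.8 CPM in striatum, 36.1, 39.8 and 43.7 in cortex and 12, 15 and 20.9 in hippocampus, again without overlap and 4.44-fold from highest to lowest.

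The repulsive netrin receptors of the Unc5 family gave a different picture, with 3 of 4 highest in hippocampus. Unc5a had 91.2, 101 and 117 CPM (lowest, median and highest) in hippocampus, 48.6, 50.04 and 57.1 in cortex and 6.17, 7.73 and 8.76 in striatum, a 13.3-fold range without overlap. Unc5b had 29.7 to 33.3 CPM in hippocampus, 17.6 to 20.9 in striatum and 6.80 to 9.38 in cortex, also without overlap. Unc5c was the member highest in striatum, at 163 to 178 CPM against 103 to 113 in cortex and 86.8 to 101 in hippocampus. Unc5d was lower in cortex (39.9 to 49.6 CPM) than in hippocampus (78.5 to 98.6) and striatum (75.8 to 88.3), and the latter 2 regions overlapped (log2 difference 0.07, adjusted p = 0.18).

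Slits and their Robo receptors were highest in different regions. All 3 Slits, secreted repellents, were highest in hippocampus and did not overlap between regions. Slit2 had 281, 305 and 327 CPM (lowest, median and highest) in hippocampus, 125, 136 and 141 in cortex and 60.0, 64.4 and 73.6 in striatum. Slit3 had 191, 197 and 220 CPM in hippocampus, 103, 109 and 116 in striatum and 46.8, 49.8 and 52.9 in cortex. Slit1 had 199 to 236 CPM in hippocampus, 153 to 182 in cortex and 79.5 to 86.4 in striatum, so that striatum was lowest for Slit1 and Slit2 and cortex was lowest for Slit3. Both tested Robo genes were lowest in hippocampus. Robo2 had 571, 596 and 629 CPM in striatum, 239, 251 and 260 in cortex and 76.4, 80.0 and 82.9 in hippocampus, a 7.5-fold range without overlap. Robo1 was lower in hippocampus (129 to 155 CPM) than in cortex (237 to 268) and striatum (221 to 250). Cortex and striatum overlapped for Robo1 although the difference passed (log2 difference 0.10, adjusted p = 0.027).

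**Figure D1:**
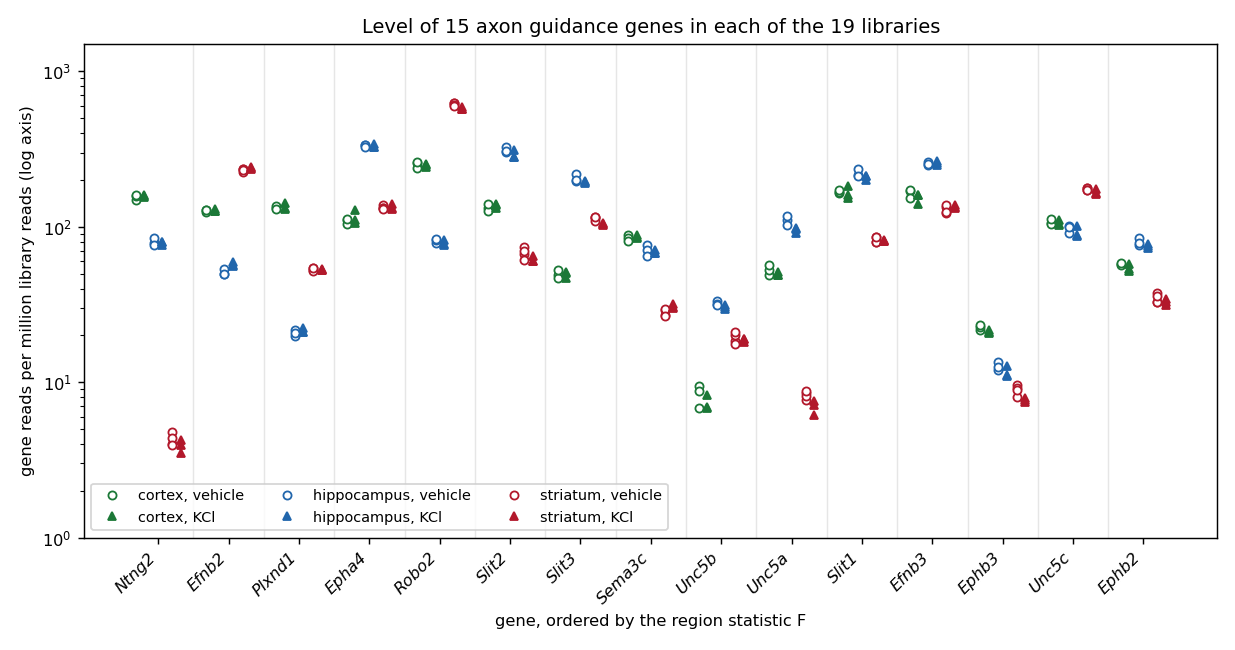
Gene reads per M library reads (log axis) of the 15 members with the largest region F statistic, one point per library, with open circles for vehicle and triangles for KCl. For each of the 15 genes the 3 regions, in green, blue and red, do not overlap, and vehicle and KCl libraries of a region lie close together.

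Of the 18 measured semaphorins, cortex had the highest mean for 10, hippocampus for 5 and striatum for 3, and 13 were higher in cortex than in striatum (4291 of 12861 tested genes). Sema3c, a secreted semaphorin, had 80.6 to 88.8 CPM in cortex, 65.0 to 75.9 in hippocampus and 26.8 to 32.0 in striatum. Sema3f, a secreted repellent that acts through neuropilins and plexins, had 16.7, 19.2 and 20.7 CPM in cortex and 13.3, 14.4 and 16.9 in striatum but 1.27, 1.87 and 2.3 in hippocampus. Hippocampus lay below both other regions for Sema3f, by 10.5-fold against cortex, and cortex and striatum overlapped. The low Sema3g had 2.12 to 3.55 CPM in striatum, 0.259 to 0.556 in cortex and 0.0529 to 0.167 in hippocampus, and Sema5a had 168 to 208 CPM in hippocampus against 53.3 to 75.1 in cortex and 50.7 to 58.7 in striatum. Sema3g and Sema5a are named after their values were seen. Others differed less between regions, such as Sema4g, whose regional means differed by 1.15-fold.

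Plexins, the semaphorin receptors, had 5 of 9 members highest in cortex, 2 in hippocampus and 2 in striatum. Plxnd1 had 130, 132 and 141 CPM (lowest, median and highest) in cortex, 52.1, 53.0 and 54.7 in striatum and 19.8, 20.9 and 22.3 in hippocampus. Its regions did not overlap, and cortex was 6.35 times hippocampus. Plxnc1, the receptor of Sema7a, had 272 to 317 CPM in cortex against 179 to 185 in hippocampus and 169 to 176 in striatum. Its ligand Sema7a was also highest in cortex, with 72.2 to 81.3 CPM against 58.3 to 72.7 in hippocampus and 35.1 to 40.1 in striatum, and cortex and hippocampus overlapped. Plxna1 was 2.10-fold lower in striatum than in hippocampus, whereas Plxna2 differed by 1.08-fold over the regions.

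Ephrins and Eph receptors split by member. Efnb2, a transmembrane ephrin, had 226, 235 and 243 CPM in striatum, 125, 127 and 131 in cortex and 49.7, 54.3 and 59.3 in hippocampus. Efna5, an ephrin held by a lipid anchor, had the same order, with 46.5 to 60.5, 19.8 to 26.9 and 5.82 to 9.83 CPM. The order was another one for Efnb3, at 248 to 263 CPM in hippocampus, 139 to 171 in cortex and 123 to 138 in striatum, and none of these 3 ephrins overlapped between regions. Among the receptors, Epha4, which binds ephrins of both classes, had 327, 332 and 340 CPM in hippocampus, 130, 132 and 141 in striatum and 104, 110 and 127 in cortex. Ephb2 had 73.2 to 85.1 CPM in hippocampus, 51.9 to 58.6 in cortex and 31.2 to 37.5 in striatum, and Ephb3 had 20.8 to 23.2 CPM in cortex, 10.9 to 13.4 in hippocampus and 7.48 to 9.58 in striatum. Epha5 was lower in hippocampus (120 to 125 CPM) than in cortex (298 to 344) and striatum (311 to 338), which overlapped (log2 difference -0.01, adjusted p = 0.69).

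The pairwise contrasts of limma voom give the same account in counts. Of 61 members, 33 were higher and 20 lower in cortex than in hippocampus (57.5% of all tested genes differed), 34 were higher and 19 lower in cortex than in striatum (68.7%), and 30 were higher and 25 lower in hippocampus than in striatum (74.7%). Centring each library on its median changed these splits to 32 and 22, 34 and 19, and 30 and 25. Ligands of the 4 families had 13 of 33 members highest in hippocampus, and receptors 8 of 27.

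The response of these genes to depolarization was examined next. The planned exact permutation test over the 3 regions called 14 of 64 members (20.6% of all genes with a profile). Efnb2 and Epha2 were higher with KCl, and Epha7, Unc5d, Efna5, Plxna4, Robo1, Ntn1, Sema3f, Ephb3, Unc5a, Sema4b, Slit3 and Epha10 were lower. The split of all genes by direction is not given and this test was not repeated after centring, so the split describes the counted members only. The smallest adjusted p was that of Epha7, 0.0019, and its p of 7.1e-05 was the smallest that the 14000 arrangements allow. Of these calls, that of Unc5a was lost without hippocampus KCl replicate 2 (adjusted p = 0.077), that of Slit3 without hippocampus KCl replicate 2 or 3 (up to 0.072), that of Epha10 without any 1 of the striatum vehicle libraries (up to 0.052) and that of Epha2 without most single libraries (up to 0.12).

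Within regions, limma voom called 1 member in cortex (4.97% of all tested genes), 9 in hippocampus (11.5%) and 19 in striatum (25.8%). These counts do not rank the regions by response, since the spread between libraries differed and striatum had 7 libraries against 6. The chi-square per gene between 2 libraries of a group was 3.29 to 19.4 in cortex. It was 4.68 to 9.72 in hippocampus and 3.88 to 5.62 in striatum, and its part in the counts was not tested. In cortex 1 was higher (4.35%) and 0 were lower (0.622%). In hippocampus 1 was higher (4.28%) and 8 were lower (7.26%), and in striatum 2 were higher (7.22%) and 17 were lower (18.6%). The median log2 change was -0.05, -0.08 and -0.07 over the members and -0.04, -0.04 and -0.06 over all tested genes. Changes were small, and called changes other than that of Epha2 stayed under 0.5 on the log2 scale. Centring each library on its median raised all changes by 0.03 in cortex, 0.05 in hippocampus and 0.08 in striatum. The split in striatum depended on this scaling, with 10 members higher and 7 lower after centring, as it did over all genes (2254 higher and 969 lower, against 929 and 2395). In hippocampus, 1 was higher and 4 were lower after centring, and in cortex 2 were higher. The summed levels of the astrocyte, oligodendrocyte lineage and endothelial lists overlapped between vehicle and KCl in each region. That of the 8 striatal neuron genes in striatum did not, at 615 to 627 CPM with vehicle and 664 to 691 with KCl, and its part in the striatum counts was not tested.

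Epha3, a receptor for ephrin-A ligands (Rn6 chr11:421135-782954, minus strand), was the cortex member. Its vehicle libraries in cortex had 98.3, 82.0 and 103 CPM and its KCl libraries 139, 123 and 125, so all KCl libraries lay above all vehicle libraries. The mean rose from 94.4 ± 10.9 to 129 ± 8.6 CPM (SD, n = 3 each; log2 change 0.45 ± 0.08, SE; adjusted p = 0.0030 in limma voom). In hippocampus it had 53.8, 55.6 and 53.1 CPM with vehicle and 55.3, 50.8 and 51.2 with KCl, and in striatum 138, 134, 135 and 131 with vehicle and 124, 131 and 129 with KCl. Neither of those differences passed (log2 change -0.05 and -0.07, adjusted p = 0.61 and 0.093). Whether the response to KCl depended on region was itself tested, and 2 of 61 members passed (3.77% of all tested genes). For Epha3 the adjusted p of this interaction was 0.00012, and it stayed past the threshold without any single library, at 0.00049 or less.

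The other member with a region-dependent response was Sema6d, a transmembrane semaphorin (interaction adjusted p = 0.023). It had 111, 116 and 117 CPM in cortex with vehicle and 133, 130 and 122 with KCl, a change that did not pass without centring (log2 change 0.16, adjusted p = 0.13) and did after it (0.20, adjusted p = 0.048). In hippocampus it had 164, 163 and 163 CPM with vehicle and 160, 157 and 153 with KCl, and in striatum 196, 181, 190 and 192 with vehicle and 206, 207 and 204 with KCl. Groups did not overlap in any of the 3 regions, being higher with KCl in cortex and striatum and lower in hippocampus. The hippocampus change did not pass, and centring raised hippocampus changes by 0.05 on the log2 scale, about the size of that drop. The striatum change passed (log2 change 0.12 ± 0.03, SE; adjusted p = 0.0044). The interaction call was lost, with adjusted p from 0.051 to 0.099, when replicate 1 of cortex vehicle, replicate 2 of cortex KCl or a hippocampus library other than KCl replicate 1 was left out.

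**Figure D2:**
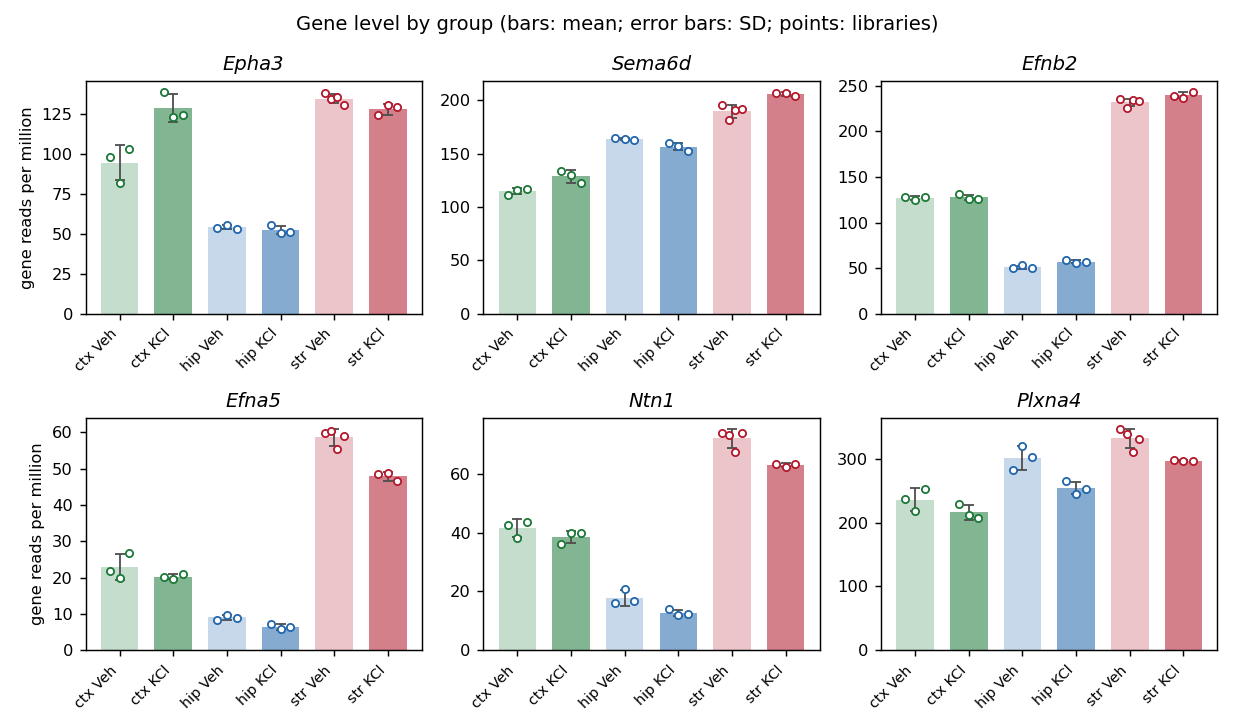
Gene reads per M library reads in each of the 6 groups for 6 members, with bars for the group mean, error bars for the SD and a point for each library (n = 3, and 4 for striatum vehicle). Epha3 is higher with KCl in cortex, at 129 against 94.4 CPM, while Efna5, Ntn1 and Plxna4 are lower with KCl in hippocampus and striatum.

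The largest change of a called member was that of Epha2, an Eph receptor with few reads (9 in its lowest library). In striatum it had 0.264, 0.342, 0.414 and 0.276 CPM with vehicle and 0.850, 0.830 and 0.556 with KCl, without overlap. The log2 change was 1.18 ± 0.33 (SE, adjusted p = 0.010). In cortex it had 0.224, 0.124 and 0.356 CPM with vehicle and 0.474, 0.387 and 0.716 with KCl, again without overlap, and the change of 1.25 ± 0.44 did not pass (adjusted p = 0.17). Efnb2 was the member higher in hippocampus, with 49.8, 53.1 and 49.7 CPM under vehicle and 59.3, 55.5 and 56.6 under KCl (log2 change 0.17, adjusted p = 0.040). That call was lost without each hippocampus library in turn except vehicle replicate 2.

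Efna5, Ntn1 and Plxna4 were lower with KCl in both hippocampus and striatum. Efna5 had 8.40, 9.83 and 9.04 CPM with vehicle and 7.24, 5.82 and 6.35 with KCl in hippocampus (log2 change -0.49 ± 0.11, SE; adjusted p = 0.0063). In striatum it had 59.8, 60.5, 55.3 and 59.0 CPM with vehicle and 48.5, 48.7 and 46.5 with KCl (-0.29 ± 0.04, adjusted p = 1.4e-05). The groups did not overlap in either region. For Ntn1 the hippocampus libraries had 16, 20.9 and 16.7 CPM with vehicle and 14, 12 and 12.5 with KCl (-0.47 ± 0.10, adjusted p = 0.0045), and the striatum libraries 73.7, 73.2, 67.2 and 73.8 with vehicle and 63.3, 62.1 and 63.2 with KCl (-0.19 ± 0.04, adjusted p = 0.00075). Plxna4, a receptor for secreted class 3 semaphorins, had 282, 319 and 302 CPM with vehicle and 265, 245 and 252 with KCl in hippocampus (-0.25 ± 0.04, adjusted p = 0.0010). In striatum Plxna4 had 346, 339, 311 and 330 CPM with vehicle and 297, 296 and 296 with KCl (-0.16 ± 0.03, adjusted p = 0.00035), which did not pass after centring (adjusted p = 0.062). KCl libraries lay below all vehicle libraries for both genes in both regions. These 3 genes kept their calls in both regions without any single library, but in hippocampus all 3 were lost when no filter on low genes was applied (adjusted p = 0.066 for Efna5, 0.10 for Ntn1 and 0.074 for Plxna4).

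The other 5 members lower in hippocampus were Unc5a (log2 change -0.21), Sema7a (-0.20), Epha7 (-0.19), Ephb1 (-0.18) and Plxna2 (-0.13), and all were also lower in striatum except Plxna2. In striatum, Epha10 (-0.27), Epha7 (-0.25), Sema4f (-0.24), Ephb1 (-0.22), Sema4b (-0.21), Sema4d (-0.20), Robo1 (-0.13), Unc5d (-0.13), Slit3 (-0.12) and Robo2 (-0.08) were among the 15 members with the smallest p, and Unc5a, Sema7a, Slit2 and Epha5, with Efna5, Ntn1, Plxna4, Epha2 and Sema6d, completed the 19. Several of these calls were not stable. Those of Unc5a, Slit2 and Epha5 were each lost or reversed in 9 or more of 11 alternatives and that of Sema7a in 6, most of them fits without single libraries. The libraries concerned were vehicle replicates 4, 6 and 8 and KCl replicates 5 and 7 for Unc5a, vehicle replicates 2, 4 and 8 and KCl replicates 1 and 7 for Slit2, all but vehicle replicate 8 for Epha5, and vehicle replicates 2 and 4 and KCl replicates 1 and 5 for Sema7a. Those of Robo2, Unc5d, Slit3, Sema4b and Robo1 were lost in 1 to 4, centring among them in each case, Robo2 and Unc5d also without KCl replicate 1 and Sema4b without KCl replicate 7. Among the families, 4 Eph receptors, 4 semaphorins, both tested Robo genes, 2 of 3 Slits and 2 of 4 Unc5 receptors fell in striatum without centring (18.6% of all tested genes). Robo2 and Epha5 changed sign after centring. The hippocampus count was 5 without vehicle replicate 2 or 3, and 4 without KCl replicate 2 or 3. With no filter on low genes it was 1, Epha7.

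**Figure D3:**
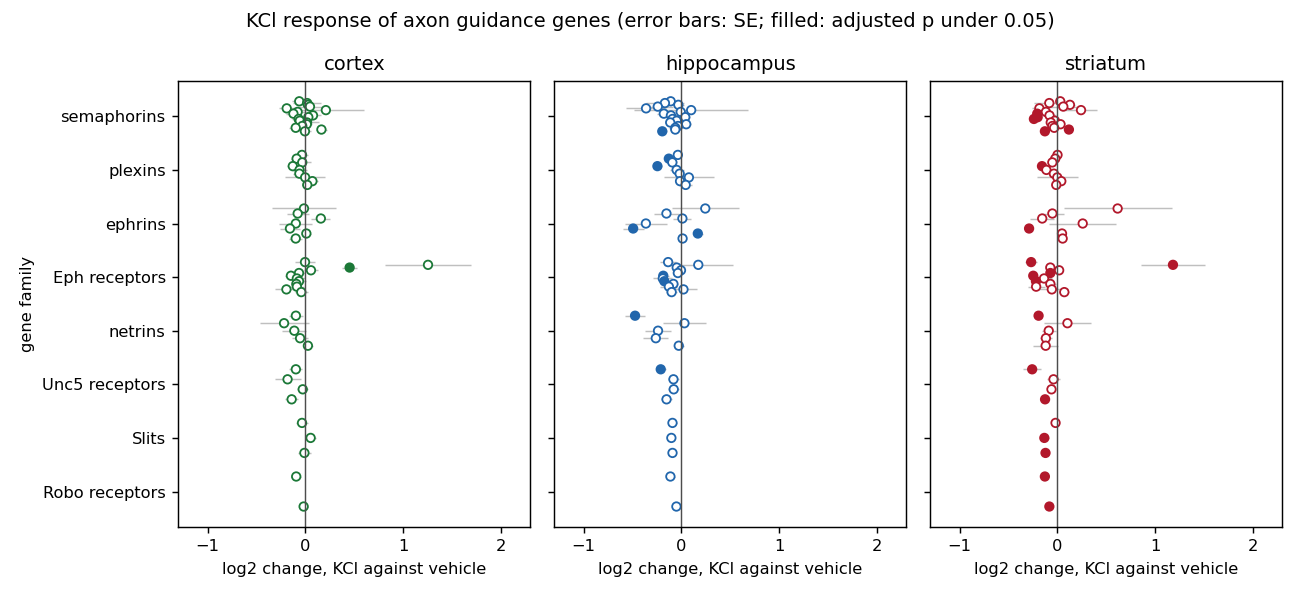
Log2 change of 60 tested members (Unc50 left out) with KCl against vehicle in each region, by family, with error bars for the SE and filled points for an adjusted p under 0.05. Most points lie a little below 0, and Epha3 in cortex and Epha2 in striatum are called above 0. Centring would move the points up by 0.03, 0.05 and 0.08. A fit after centring has 17 calls in striatum, 10 of them above 0, which are not the same set as the calls drawn here.

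Genes of the same pathways outside the symbol rule were described from a list of 54, of which 43 had values. Region dependence passed for 41 of 43 (84.0% of all tested genes), and 19, 16 and 8 were highest in cortex, hippocampus and striatum. With KCl, 3 were higher and 0 lower in cortex (4.35% and 0.622%), 3 higher and 4 lower in hippocampus (4.28% and 7.26%), and 3 higher and 13 lower in striatum (7.22% and 18.6%). The interaction passed for 4 (3.77%), Nrp1, Lrrc4, Flrt2 and Vav3. Nrp1, the co-receptor of class 3 semaphorins, had mean levels of 148 ± 17 CPM in cortex (SD, n = 6), 570 ± 24 in hippocampus (n = 6) and 64.3 ± 2.8 in striatum (n = 7). It changed by 0.29 on the log2 scale with KCl in cortex and by -0.10 in hippocampus. Lrrc4, a binding partner of netrin-G2, was higher with KCl in cortex, hippocampus and striatum, by 0.49, 0.33 and 0.84 on the log2 scale, and these genes are named after their values were seen.

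eRNA near the members was sparse. The median member TAPE held 15 reads summed over all 19 libraries, against 14 over all TAPEs. Values are CPKM, the reads per kilobase of TAPE and per M library reads. A mean of at least 0.05 CPKM was reached by 7 of 109 TAPEs (6.42%, against 6.79% of all TAPEs), which were tested. They lay near Efna2, Ntn3, Sema6b, Sema4b, Plxnd1, Plxna3 and Epha10, where near means under 100 kb. Of these members only Plxnd1 was the nearest gene of its TAPE. Cirbp lay 2443 bp from the TAPE near Efna2, Pdpk1 9269 bp from that near Ntn3 and Tnfaip8l1 8643 bp from that near Sema6b. The other 102 TAPEs had a median of 13 reads in all (3 to 122). Those near Ephb4 (0.0456 CPKM), Sema4a (0.0436) and Epha4 (0.0399) were next below the filter, just under the 0.0567 of the lowest tested. Summed over the 109 TAPEs, reads per M library reads were 3.30 ± 0.59 in cortex vehicle and 3.67 ± 0.37 in cortex KCl libraries, 3.81 ± 0.46 and 3.12 ± 0.46 in hippocampus, and 3.39 ± 0.19 (n = 4) and 3.30 ± 0.14 in striatum (SD, n = 3 unless given). These sums overlapped between vehicle and KCl in each region.

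Of the 7 tested TAPEs, 4 passed for region (48.8% of 1870 tested TAPEs). The count supports nothing about the members, because the TAPEs near Epha10, Plxna3 and Sema6b had a mean under 0.05 CPKM in at least 1 region and the first 2 passed the filter only through the region where they were highest. The TAPE 71807 bp from Epha10 (Rn6 chr5:142946930-142948230, 81 reads in all) had 0.0816, 0.0794 and 0.209 CPKM in hippocampus vehicle and 0.175, 0.108 and 0.154 in hippocampus KCl libraries. Its cortex libraries had 0.0123 to 0.0517 CPKM, and its striatum libraries 0 to 0.0310, with 4 of 7 at 0, which allows up to 0.0442 CPKM (3 reads). Hippocampus lay above both other regions without overlap (on the log2(CPKM + 0.05) scale, cortex minus hippocampus was -1.16 ± 0.23 and hippocampus minus striatum 1.56 ± 0.22, SE, with adjusted p = 0.00046 and 9.9e-07 in limma). Its cortex and striatum means lay under the filter, and both differences also passed with no filter. Epha10 itself was highest in striatum (17.1 to 22.3 CPM, against 11.9 to 14.8 in hippocampus and 8.47 to 9.97 in cortex), where its TAPE was lowest, and the r of the pair over all libraries was -0.237.

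The TAPE 81495 bp from Plxna3 (Rn6 chrX:156460074-156461293, 88 reads) had 0.0433, 0.149, 0.0990 and 0.297 CPKM in striatum vehicle and 0.108, 0.136 and 0.189 in striatum KCl libraries. Cortex libraries had 0.0131 to 0.0552 CPKM and hippocampus libraries 0 to 0.0297, where the 3 libraries at 0 allow up to 0.0434 CPKM. Striatum lay above hippocampus as listed, although the limit for 0 reads reaches its lowest library, vehicle replicate 2 (hippocampus minus striatum -1.54 ± 0.25 on the log2 scale, SE, adjusted p = 7.5e-06) and, with the exception of vehicle replicate 2, above cortex (cortex minus striatum -1.18 ± 0.25, adjusted p = 0.00037). Plxna3 was also highest in striatum, at 169 to 190 CPM, against 125 to 163 in cortex and 131 to 154 in hippocampus. The cortex and hippocampus means of this TAPE lay under the filter, and both differences also passed with no filter. The r of this pair was 0.693, and it was 0.0019 once group means were removed. Flna, 3269 bp from the TAPE, had an r of 0.786.

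The TAPEs near Efna2 and Sema6b passed less firmly. The one 14199 bp from Efna2 (Rn6 chr7:12406358-12408572, 437 reads) averaged 0.256 ± 0.120 CPKM over the 7 striatum libraries (SD), 0.151 ± 0.058 over those of cortex and 0.127 ± 0.030 over those of hippocampus. The difference of striatum from hippocampus passed (hippocampus minus striatum -0.70 ± 0.24, SE, adjusted p = 0.020), but not without hippocampus KCl replicate 2 or striatum KCl replicate 7 (adjusted p = 0.054 and 0.056). The one 35730 bp from Sema6b (Rn6 chr9:10904744-10907022, 216 reads) averaged 0.123 ± 0.065 CPKM in cortex (SD), 0.0468 ± 0.0352 in hippocampus and 0.0820 ± 0.0206 in striatum. Cortex and hippocampus overlapped, and their difference (log2 0.84 ± 0.27, adjusted p = 0.030) did not pass without cortex vehicle replicate 2 or 3, cortex KCl replicate 1, hippocampus vehicle replicate 3 or hippocampus KCl replicate 2 (adjusted p = 0.061 to 0.10). Neither difference passed after centring (adjusted p = 0.077 and 0.064), without a filter or with vehicle libraries only.

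In pairwise contrasts, 2 of 7 TAPEs differed between cortex and hippocampus (14.9% of all tested TAPEs), 1 between cortex and striatum (33.3%) and 3 between hippocampus and striatum (43.0%). For KCl against vehicle, 0 of 7 were called in cortex (0.321% of all tested TAPEs), 0 of 7 in hippocampus (0.0535%) and 0 of 7 in striatum (1.23%). Likewise 0 of 7 had a region-dependent response (0.0535%). At an unadjusted p under 0.05, limma had 1 of 7 for cortex, 0 for hippocampus and 3 for striatum. The share of all tested TAPEs at that threshold is not given, so nothing about the members is read from these counts. In addition, limma voom on the TAPE reads also called 0 in each region.

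The smallest KCl p-values of the TAPEs are given as values that were not called. At the TAPE near Efna2 the striatum libraries had 0.191, 0.146, 0.296 and 0.101 CPKM with vehicle and 0.358, 0.258 and 0.441 with KCl (log2 change 0.83 ± 0.28, SE, adjusted p = 0.17), and the groups overlapped. Its cortex libraries had 0.0724, 0.118 and 0.121 CPKM with vehicle and 0.165, 0.205 and 0.224 with KCl (0.70 ± 0.29, adjusted p = 0.39), and these did not overlap. In hippocampus the same TAPE had 0.136, 0.109 and 0.155 CPKM with vehicle and 0.126, 0.0796 and 0.158 with KCl. In striatum the TAPE 56104 bp from Ntn3 (Rn6 chr10:13523565-13525870, 442 reads) had 0.267, 0.288, 0.172 and 0.360 CPKM with vehicle and 0.115, 0.216 and 0.0997 with KCl (-0.75 ± 0.27, adjusted p = 0.21). The TAPE near Epha10 changed there by -0.48 (adjusted p = 0.27). In cortex the TAPEs near Epha10 and Plxna3 followed with 0.44 (adjusted p = 0.63) and 0.41 (0.67), and in hippocampus the 3 smallest p-values were at the TAPEs near Plxnd1 (-0.54, adjusted p = 0.51), Sema4b (0.37, 0.63) and Ntn3 (-0.47, 0.64). The TAPEs 16291 bp from Plxnd1 (Rn6 chr4:147909469-147911096, 133 reads) and 12578 bp from Sema4b (Rn6 chr1:141972513-141974621, 187 reads) also did not pass for region.

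**Figure D4:**
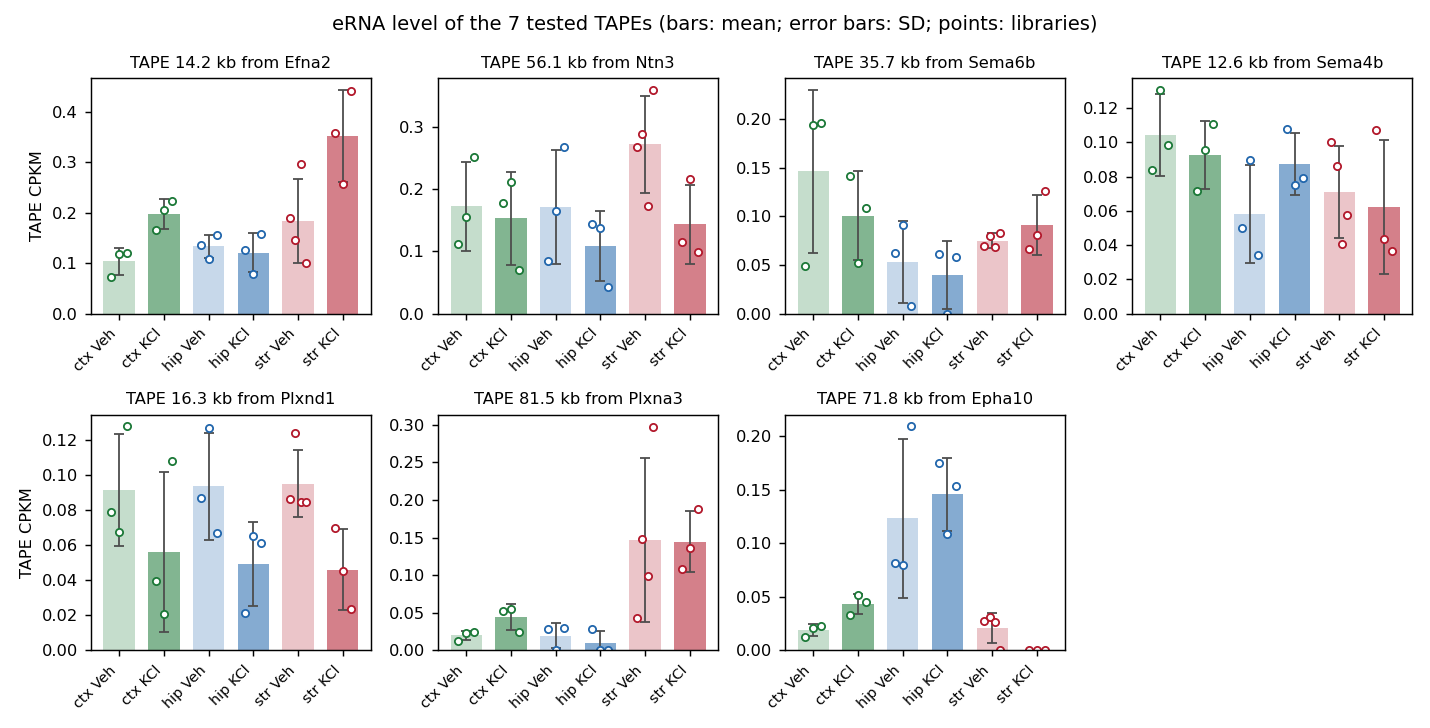
CPKM of the 7 tested TAPEs in each group, with bars for the mean, error bars for the SD and a point for each library (n = 3, and 4 for striatum vehicle). The TAPE near Epha10 is highest in hippocampus, at 0.134 against 0.0310 CPKM in cortex and 0.0121 in striatum, that near Plxna3 is highest in striatum, and vehicle and KCl libraries overlap for most TAPEs.

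To ask whether eRNA near a member followed its mRNA, the deposited Pearson r of TAPE and gene CPKM over the 19 libraries was compared with that of all other pairs under 100 kb. The median r of the 112 member pairs was 0.108 (from -0.472 to 0.868), and that of the 34592 other pairs was 0.0415. An r above 0.5 was found for 12 of 112 (10.7%, exact 95% binomial interval 5.66 to 18.0%, which covers counting error only) and for 7.59% of the other pairs, a share inside that interval. No member pair was below -0.5 (1.89% of the others). The points of a pair share libraries, depth and regions, so r is a description and has no p. It moves with depth: r exceeded 0.5 in 1 of 37 member pairs whose TAPE held under 10 reads (other pairs 3.37%), 5 of 44 with 10 to under 30 reads (5.67%), 5 of 24 with 30 to under 100 (10.8%) and 1 of 7 with 100 or more (16.2%). Within the libraries of a region the median r of member pairs was 0.0189 (cortex), 0.147 (hippocampus) and 0.0616 (striatum), and that of the other pairs was -0.0011, 0.0044 and 0.0170. After removing the means of the 6 groups it was 0.0150 over all libraries.

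By family, r exceeded 0.5 in 3 of 34 pairs of Eph receptors, 1 of 30 of semaphorins, 3 of 20 of plexins, 2 of 8 of Unc5 receptors, 2 of 6 of netrins, 1 of 3 of ephrins, 0 of 6 of Robo receptors and 0 of 3 of Slits. The member was the nearest gene of the TAPE in 67 of 112 pairs and the best correlated of the genes within 1 Mb in 15, where a TAPE had a median of 26 such genes. The same shares over the other pairs are not given, so whether these counts are unusual cannot be told. Of the 7 tested TAPEs, the pairs with Plxna3 (0.693) and Sema4b (0.375) had the highest r, and those with Plxnd1 (0.0104), Ntn3 (-0.0557), Sema6b (-0.0595), Epha10 (-0.237) and Efna2 (-0.472) were near or below 0. None of the 7 TAPEs had a member as its best correlated gene. The TAPE near Epha10 correlated best with Dnali1 (0.864, 114646 bp away) and the one near Efna2 with Dot1l (0.805, 582723 bp).

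**Figure D5:**
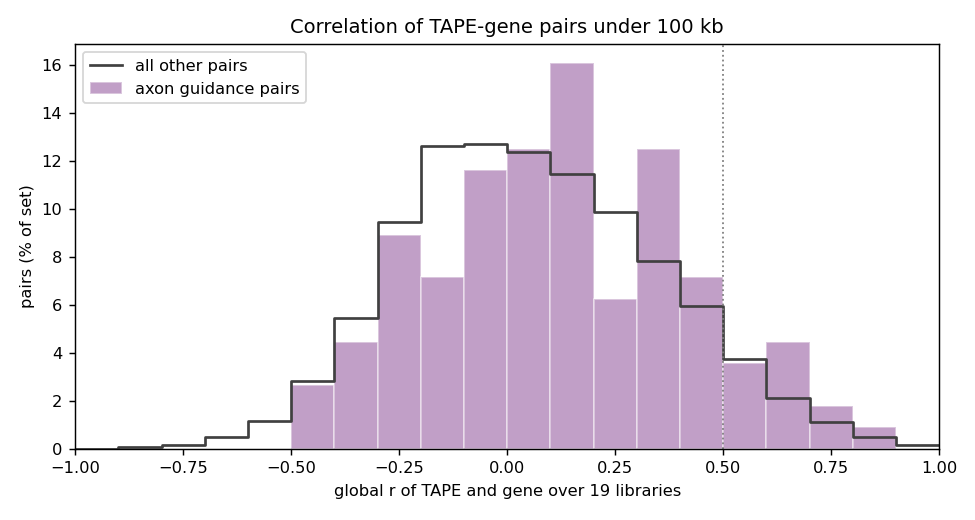
Share of TAPE-gene pairs under 100 kb in each bin of the global r, for the 112 axon guidance pairs (filled bars) and the 34592 other pairs (line). Both spread widely around 0, with medians of 0.108 and 0.0415, and the dotted line marks r = 0.5, which 10.7% and 7.59% of the pairs exceed.

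The highest r of all member pairs was that of Ntn1 with a TAPE 13819 bp upstream (Rn6 chr10:54980292-54982517), 0.868, although this TAPE was too low to test (82 reads in all). It had 0.0791, 0.0724, 0.0310 and 0.0931 CPKM in striatum vehicle and 0.0933, 0.0994 and 0.0861 in striatum KCl libraries. Its cortex libraries had 0.00619 to 0.0267 CPKM and its hippocampus libraries 0 to 0.00814, so striatum lay above both other regions, as for Ntn1, and cortex and hippocampus overlapped. Within regions the r of this pair was 0.536 (cortex), 0.798 (hippocampus) and -0.18 (striatum), and it was 0.677 once group means were removed. The hippocampus libraries held at most 1 read of this TAPE each. In striatum vehicle, replicate 6 was lowest for both the TAPE (0.0310 CPKM) and Ntn1 (67.2 CPM). The r without group means and without that library is not given. While Ntn1 was lower with KCl in striatum, the mean of this TAPE was 0.0689 ± 0.0267 CPKM with vehicle (SD, n = 4) and 0.0929 ± 0.0067 with KCl (n = 3), which was not tested.

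The next pairs by r had few reads. Epha4 and a TAPE 88351 bp from it (Rn6 chr9:83340967-83342652, 73 reads) had an r of 0.777. That TAPE had 0.0839, 0.0919 and 0.0215 CPKM in hippocampus vehicle and 0.197, 0.115 and 0.0889 in hippocampus KCl libraries, at most 0.0511 in cortex and reads in 1 of 7 striatum libraries, and Epha4 was likewise highest in hippocampus. Plxna2 (0.724, 10 reads), Unc5a (0.674, 13 reads) and Efnb2 (0.670, 15 reads) followed. Their TAPEs had reads in 3, 5 and 7 libraries, at most 6, 5 and 3 in any. No r could be had within striatum for the Plxna2 and Unc5a pairs, whose TAPEs had no read there.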

How the data were processed

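Total RNA from 19 libraries of cultured rat neurons was depleted of ribosomal RNA and sequenced with strand kept. The authors trimmed the reads (Trim Galore 0.4.5, FastQC, SAMtools 1.9 and the rn6 genome are named in the submitters' processing notes), aligned them with STAR, and counted reads of both strands over each TAPE in SeqMonk. The values the authors deposited are RPKM, which the study calls CPKM: reads per kilobase of TAPE and per M library reads, 1 column per library. The deposited table also holds scores, the Pearson r of each TAPE with each gene within 1 Mb, over all libraries and per region. All 19 library columns were used, and 0 were left out. Distances run from the centre of a TAPE to the start site of the gene.

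CPKM times TAPE length gave whole reads for 100% of values above 0 (within 0.01 read), from which library totals of 46.4 to 72.5 M reads and 47431 to 83272 TAPE reads per library were recovered. The relative levels of a gene in the libraries follow from its r values with the surrounding TAPEs and were computed where enough r values were given (16797 of 17715 genes), and gene reads by finding the scale on which the profile gave whole numbers (16689 genes, at most 0.00524 read from whole). How gene reads were counted over exons or strands is not given in the sources used here, so overlapping and antisense genes cannot be told apart. Intervals and limits from 0 reads cover counting error only, since reads carry no molecular identifiers. The library totals exceed the reads per sample that the study states, and many low TAPE counts were even numbers. Whether both mates of a read pair were counted was not tested. If they were, reads are not independent counts and the limits from 0 reads are too low.

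Gene profiles were tested by exact permutation of libraries (treatment within region, two-sided, with 14000 arrangements, and region within treatment, by an F statistic, with 7056000), as designed for values without a scale. Because reads could be recovered, limma voom (limma 3.58.1, R 4.3.3) on genes with a mean of at least 10 reads was added after the data were examined. TAPEs with a mean of at least 0.05 CPKM were tested with limma on log2(CPKM + 0.05), a scale on which low TAPEs show too small a change. KCl was fitted within each region and regions over both treatments. P-values were adjusted by Benjamini-Hochberg over all features tested, with a threshold of 0.05. Python 3.11.15 was used with numba 0.67.0, pandas 2.3.3, scipy 1.17.1 and numpy 2.4.6, and scripts were tested on simulated data.

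Genes named with values were those past a test, at most the 15 with the smallest p, and TAPEs were those called, the 3 with the smallest p where none was, the 10 highest, and the pairs with the highest and lowest r (all 7 above the filter and the 5 highest below it). Other named genes were chosen after their values were seen. The members and lists were chosen with earlier results of these data known. Alternatives were the pseudocount, filter, scaling, distance, covariates, libraries left out, replicate block, ranks, and the set without Unc50 and Unc5cl. Same-numbered vehicle and KCl libraries did not deviate together, so the numbers were not taken to pair them.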

Additional observations from a re-analysis of the deposited data

Results flagged for a closer look

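In striatum vehicle, the group with 4 libraries, 1 library stood apart from the other 3 for 5 of 68 values examined, which is about the 1 in 20 that chance gives. Ntn1 had 67.2 CPM in replicate 6 against 73.2 to 73.8 CPM in the others. Ntn3 had 1.62 CPM in replicate 8 against 1.05 to 1.10, and Plxnb2 had 102 CPM in replicate 2 against 94.8 to 95.8. The TAPE near Plxnd1 had 0.124 CPKM in replicate 4 against 0.0848 to 0.0865, and the TAPE near Epha10 had 0 CPKM in replicate 8 against 0.0265 to 0.0310. That last value is 0 reads against 2 reads in each of the others. A library at 0 allows at least 0.0398 CPKM there (3 reads), so replicate 8 cannot be told apart from the others at this TAPE.

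The effect of KCl differed between regions for 2 member genes by the interaction term of limma voom. For Epha3 the adjusted p was 0.00012, with a log2 change of 0.45 in cortex, -0.05 in hippocampus and -0.07 in striatum. For Sema6d it was 0.023, with 0.16, -0.06 and 0.12, and that call was lost (adjusted p = 0.051 to 0.099) when replicate 1 of cortex vehicle, replicate 2 of cortex KCl or a hippocampus library other than KCl replicate 1 was left out.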

How the results depend on the processing

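For region dependence, 4 of 7 TAPEs were called, against 7 of 109 without a filter, 1 of 2 with a filter of 0.1 CPKM, 2 after centring, 2 with vehicle libraries only, 2 of 4 within 50 kb and 7 of 20 within 200 kb. Cortex against hippocampus went from 2 to 0 with the filter of 0.1 CPKM and to 1 after centring, with vehicle only and within 50 kb. Cortex against striatum went from 1 to 3 without a filter, 0 with the filter of 0.1 CPKM or within 50 kb, and 2 with treatment as a covariate or within 200 kb. Hippocampus against striatum went from 3 to 9 without a filter, 1 with the filter of 0.1 CPKM or within 50 kb, and 7 within 200 kb. For genes in limma voom, whose alternatives were chosen after seeing the data, the KCl count in cortex went from 1 to 2 after centring and in 1 fit of 6 groups. In hippocampus it went from 9 to 1 without a filter and 5 after centring, and in striatum from 19 to 12 in 1 fit. With the replicate block the hippocampus count was 5, the interaction (cortex and hippocampus only) went from 2 to 1, the cortex count stayed 1 and the TAPE counts stayed 0. Same-numbered libraries had r of deviations from -0.21 to 0.10, and striatum numbers are not shared between treatments. The median r of pairs was -0.0557 for tested TAPEs, 0.0189 over cortex libraries and 0.0150 for residuals. The share of r above 0.5 was 19.4% over cortex and 21.6% over hippocampus libraries (17.3% and 17.7% of other pairs), and 2.68% exceeded 0.7 (1.76%). After centring, Epha5 (0.0113) and Robo2 (0.00099) changed sign in striatum. Leaving out each library gave 2 to 4 TAPEs for region, 1 to 2 for cortex against hippocampus, 1 to 2 for cortex against striatum and 2 to 4 for hippocampus against striatum, 4 to 11 genes in hippocampus, 14 to 19 in striatum, 1 to 2 for the interaction, and 12 to 18 in the permutation test of KCl. The lowest of these, 2 TAPEs for region, came without hippocampus KCl replicate 2. Of the other values of named genes and TAPEs, 416 kept their direction and side of the threshold under these settings and 48 were no longer past it (1198 and 59 when libraries were left out). The causes were not tested. Depth limits the TAPEs, with a median of 15 reads over all libraries.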
